A study of Rattus norvegicus with 30 samples.

Results

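Egr1, Egr2 and Egr3 encode early growth response factors, zinc finger proteins that bind GC-rich DNA. On arrays of rat hippocampus, every probe set annotated to exactly 1 of these 3 gene symbols was taken, which gave 3 of the 4737 genes named on the array and 6 of its 8740 probe sets, array controls left out. Egr1 has 4 of them (AF023087_s_at, M18416_at, rc_AI176662_s_at and U75398_s_at), Egr2 has U78102_at and Egr3 has U12428_at. The genes were chosen by their own change after kainate in these arrays, a rise at 1 and 6 h and a level under the controls at 24 h. Their kainate minus phosphate-buffered saline (PBS) values are therefore a description and carry no test.

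Total RNA of rat hippocampus was hybridised to 30 Affymetrix arrays. Rats had been given kainate, which activates glutamate receptors and brings on seizures, or PBS as the control, and were killed 1, 6, 24, 72 or 240 h later. Each of the 10 groups, kainate at 1, 6, 24, 72 and 240 h and PBS at the same 5 times, has 3 arrays. The labels give no strain, sex, age, dose or route for any group and do not say how many animals an array stands for, so every SE and p-value measures the spread between these arrays, which may be technical.

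Egr genes are immediate early genes, which neurons transcribe within minutes of strong activity and without making new protein first. Glutamate receptors, calcium and the ERK kinase cascade lead to phosphorylation of CREB and of the partners of serum response factor. In the promoters of such genes CREB binds the CRE and serum response factor binds the CArG box. The Egr proteins then act on other genes, among them Arc and Nab2, whose product, like Nab1, binds Egr proteins and limits their activity. In the brain Egr1 and Egr3 are known for their part in synaptic plasticity and memory, and Egr2 is best known for switching on myelin genes in Schwann cells.

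The promoter stretches of Egr1 and Egr2 are shown as background, because they hold the sites through which activity is known to reach such genes. They are the 150 bases that end just before the start site given in the RefSeq promoter table (GRCr8), Egr1 at chr18:26736928-26737077 on the + strand and Egr2 at chr20:21054442-21054591 on the - strand, written 5′ to 3′ along the gene. Capitals mark each CArG box and each CRE core (TGACGT on either strand).
Egr1: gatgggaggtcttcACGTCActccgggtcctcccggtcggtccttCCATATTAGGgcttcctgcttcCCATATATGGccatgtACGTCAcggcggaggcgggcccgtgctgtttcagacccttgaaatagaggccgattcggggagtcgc
Egr2: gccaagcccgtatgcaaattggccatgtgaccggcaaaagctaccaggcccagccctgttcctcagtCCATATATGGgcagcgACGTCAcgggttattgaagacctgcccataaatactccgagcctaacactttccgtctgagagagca

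In both stretches the same CArG box, CCATATATGG, lies at -83 to -74 from the start site, and a CRE core, ACGTCA, lies at -67 to -62. Egr1 has a further CArG box, CCATATTAGG, at -105 to -96 and a further CRE core at -136 to -131. The search covered the 250 bases before each start site, on both strands, in 33469 promoters of the table. In that window 1.497% of promoters held at least 1 CArG box and 0.0209% held at least 2, and 6.95% held a CRE core. The Egr binding site itself, searched as GCGNGGGCG on either strand, was in 4.29% of promoters and in neither Egr1 nor Egr2. The promoter of the paralog Egr4 held a CRE core at -179 to -174 and at -111 to -106 and no CArG box in this window. The table held no promoter of Egr3, so its sites could not be searched. The stretches of Egr1 and Egr2 were shown because they hold such sites, so the shares above are background and no test. A match to these letters does not show that a factor binds there, and the part of these sites in the early rise was not tested.

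Egr1 was higher after kainate at 1 and 6 h on each of its probe sets and lower at 24 h on 3 of the 4. Signals below are the deposited linear intensities after each array was scaled to a common trimmed mean. On AF023087_s_at, the Egr1 probe set with the highest mean, the PBS arrays at 1 h read 1166, 1268 and 1237 and the kainate arrays 3619.5, 2645 and 3552. At 6 h the PBS arrays read 949, 803 and 982 and the kainate arrays 1877, 2155 and 2137. All kainate arrays lay above all PBS arrays at both times, and the log2 difference was 1.41 ± 0.15 (SE, 3 arrays per group) at 1 h, 2.65-fold, and 1.18 ± 0.15 at 6 h, 2.26-fold.

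The direction on AF023087_s_at was opposite at 24 h. The PBS arrays read 1063, 1011 and 924 and the kainate arrays 638, 592 and 691, a log2 difference of -0.64 ± 0.15 or 1.56-fold lower, with no overlap. At 72 h the PBS arrays read 915, 892 and 862 and the kainate arrays 609, 760.2 and 837, still without overlap, and the difference was -0.29 ± 0.15. At 240 h the groups overlapped, with 1269.9, 827 and 1022 in PBS and 1013, 927 and 1273 in kainate, a difference of 0.05 ± 0.15. Fewer cells with Egr1 mRNA and less Egr1 mRNA per cell cannot be told apart in RNA from whole tissue.

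M18416_at, a probe set of Egr1 with lower signal, followed the same course, with a larger rise at 1 h and a larger fall at 24 h. At 1 h its PBS arrays read 316, 490.4 and 338 and its kainate arrays 1139, 1167 and 1535, a log2 difference of 1.76 ± 0.18 or 3.39-fold. At 6 h they read 412, 344 and 427 in PBS and 767, 824 and 1069.8 in kainate, 1.16 ± 0.18 or 2.24-fold. At 24 h they read 381, 329 and 251 in PBS against 133, 177 and 154 in kainate, -1.04 ± 0.18 or 2.05-fold lower. The highest kainate array at 24 h was thus below the lowest PBS array of the whole series, 251. At 72 h the arrays read 421, 429 and 442 in PBS and 266, 357 and 298 in kainate, a difference of -0.50 ± 0.18 without overlap. At 240 h they overlapped, at 309.8, 378 and 386 in PBS and 349, 377 and 384 in kainate, with a difference of 0.06 ± 0.18.

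The probe set rc_AI176662_s_at of Egr1 gave 180.2, 219 and 202 in PBS and 539.7, 629 and 543 in kainate at 1 h, a log2 difference of 1.51 ± 0.18. At 6 h it gave 167, 225 and 166 against 383, 384 and 599, or 1.27 ± 0.18. At 24 h it gave 167, 142 and 141 against 68, 95.3 and 75.1, or -0.93 ± 0.18, 1.90-fold lower. None of these groups overlapped. At 72 h it gave 188, 239 and 276 in PBS and 155, 155 and 162 in kainate, -0.56 ± 0.18, again without overlap. At 240 h the values were 216, 197 and 172 against 181, 204 and 212, a difference of 0.04 ± 0.18.

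The smallest changes of Egr1 were on U75398_s_at. At 1 h its PBS arrays read 102, 115 and 114 and its kainate arrays 140.0, 238 and 217, a log2 difference of 0.81 ± 0.19, and the kainate array at 140.0 was close to the controls. At 6 h the arrays read 117, 172 and 127 against 219.6, 199.6 and 204, or 0.60 ± 0.19. At 24 h the groups overlapped on this probe set, with 85.7, 124 and 127 in PBS and 81.3, 65.8 and 95.6 in kainate, a difference of -0.47 ± 0.19. Only 2 of the 3 kainate arrays were below every control then. At 72 h all kainate arrays, 126, 126 and 109.7, were below the PBS arrays, 135, 144 and 152, by -0.25 ± 0.19. At 240 h the values were 96.4, 125 and 108 against 115, 120.1 and 131, 0.16 ± 0.19.

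**Figure D1:**
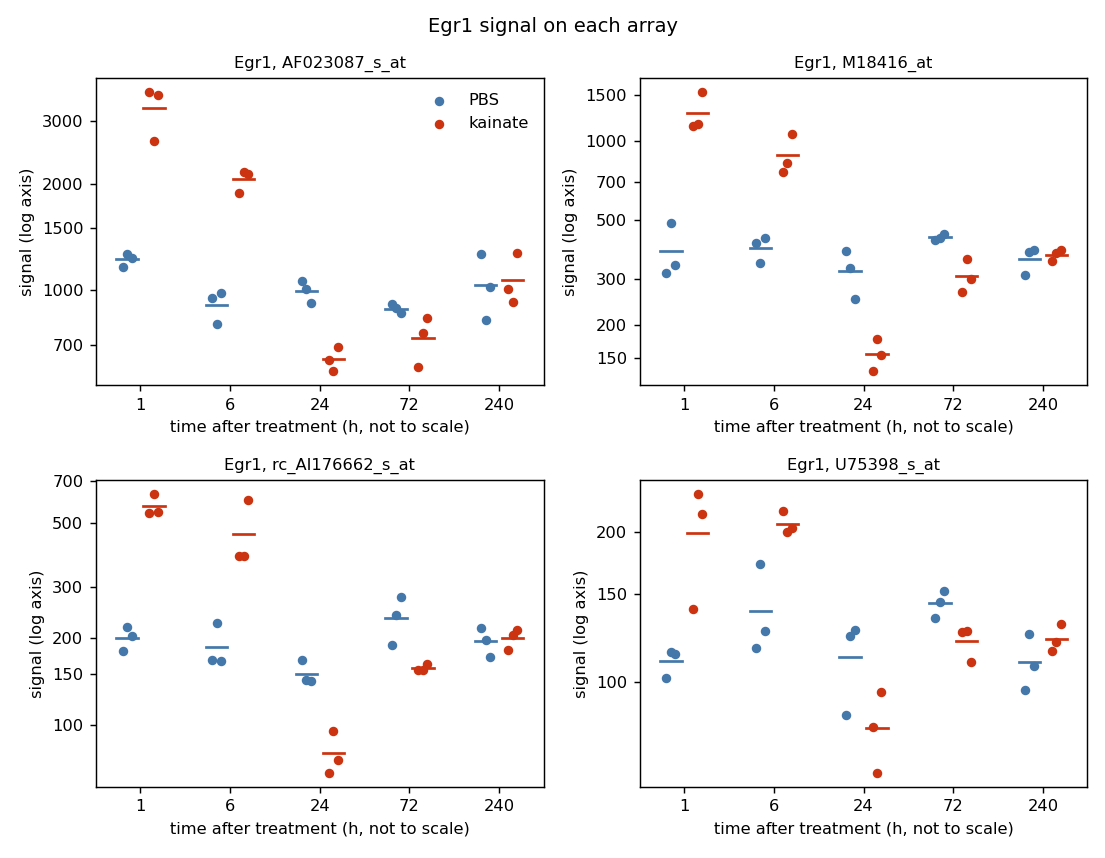
Signal of the 4 Egr1 probe sets on each array (points; scaled linear intensity on a log axis) at 1, 6, 24, 72 and 240 h after PBS (blue) or kainate (red), with the mean of each group of 3 arrays as a line. All 3 kainate arrays lie above the PBS arrays at 1 and 6 h on each probe set, below them at 24 h on AF023087_s_at, M18416_at and rc_AI176662_s_at, and overlap with them at 240 h.

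Egr2 rose further than Egr1 on the log2 scale at both early times and had no clear low phase. Its PBS signal was low, between 22.7 and 71.3 over the 15 control arrays. At 1 h the PBS arrays of Egr2 read 32.1, 71.3 and 37.9 and the kainate arrays 516, 427 and 415, a log2 difference of 3.35 ± 0.31, 10.2-fold. At 6 h they read 23.4, 33.3 and 26.2 in PBS and 106, 120.2 and 173 in kainate, 2.25 ± 0.31 or 4.75-fold. The groups did not overlap at either time, and the effect at 6 h was lower than that at 1 h by -1.10 ± 0.44.

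At 24 h 2 of the 3 kainate arrays of Egr2 were below every control. The PBS arrays read 22.8, 26.6 and 34.3 and the kainate arrays 28.3, 13.7 and 18.7, so the groups overlapped, and the log2 difference was -0.51 ± 0.31. At 72 h the arrays read 22.7, 26.7 and 26.9 in PBS and 18.2, 26.4 and 21.1 in kainate, -0.23 ± 0.31. At 240 h they read 42.2, 30.1 and 46.6 against 37.6, 21.6 and 29.99, -0.43 ± 0.31. At all 3 late times the mean of Egr2 was thus under the control mean by less than 2 SE, with overlapping groups. Only 11 of the 30 arrays had an Egr2 signal above 35.2, the 40th percentile of all signals, which limits how far a fall of this gene could be seen.

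Egr3 was at the low end of the array's range. All 15 PBS arrays lay between 2.77 and 8.92, below the floor of 10.95 that was set at the 20th percentile of all signals, so differences of Egr3 depend on where the floor is set. Only at 6 h, where every kainate array was above the floor, is the fold against PBS a lower bound. At 1 h the kainate arrays of Egr3 read 6.46, 23.8 and 42.8 against 4.75, 3.50 and 6.23 in PBS, so 2 of 3 arrays were above the floor, and the one under it counts as overlapping the controls. The log2 difference was 1.03 ± 0.43, and 0.56 without the array at 42.8. At 6 h all kainate arrays, 35.3, 32.4 and 34.5, were above the PBS arrays at 6.58, 6.06 and 8.14, at least 3.11-fold higher (log2 1.64 ± 0.43). This was the time at which the spread of the kainate arrays of Egr3 was smallest against their mean, 34.1 ± 1.51 (SD, n = 3).

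At the late times Egr3 could not show a low phase, since the controls were already under the floor. At 24 h the kainate arrays of Egr3 read 8.21, 2.67 and 11.7 against 2.77, 4.70 and 4.71 in PBS. At 72 h they read 8.61, 6.87 and 9.71 against 5.76, 5.23 and 7.90, all under the floor. At 240 h 1 kainate array read 39.3 while the others read 12.8 and 6.51, against 7.72, 6.33 and 8.92 in PBS, and the log2 difference of 0.69 ± 0.43 fell to 0.11 without that array. Egr3 passed the filter on low signals through 3 kainate arrays only.

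**Figure D2:**
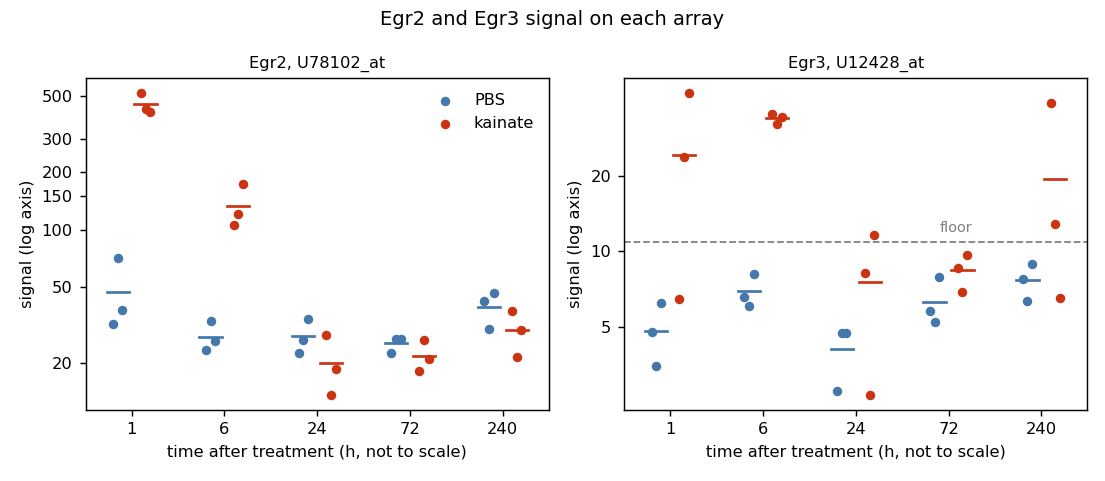
Signal of Egr2 (U78102_at) and Egr3 (U12428_at) on each array (points; scaled linear intensity on a log axis) after PBS (blue) or kainate (red), with the mean of each group of 3 arrays as a line and, for Egr3, the floor at 10.95 as a dashed line. Egr2 reads 415 to 516 at 1 h and 106 to 173 at 6 h after kainate, and every PBS array of Egr3 lies below the floor.

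Among the 6303 probe sets tested in limma, 0.904% passed an adjusted p of 0.05 as higher and 0.19% as lower at 1 h, 3.24% and 0.698% at 6 h, 5.03% and 6.30% at 24 h, 0.0476% and 0% at 72 h, and 0.0476% and 0% at 240 h. Of the 6 Egr probe sets 5 were among the higher ones at 1 h, all but Egr3, and 5 at 6 h, all but U75398_s_at of Egr1. At 24 h 3 of them, all of Egr1, were among the lower ones, and none passed at 72 or 240 h. At 72 h 400 of the 6303 and at 240 h 767 had an unadjusted limma p under 0.05. The kainate arrays were all above the PBS arrays for 4.73% of probe sets at 1 h and 9.65% at 6 h, and all below for 15.6% at 24 h and 12.0% at 72 h. Lying above at 1 and at 6 h and below at 24 h, without overlap at any of them, was seen for 0.317%, which is 20 probe sets, 3 of them of Egr1. Since these contrasts chose the genes, the counts describe them and nothing is read from the comparison.

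The size and order of the early effects varied among the paralogs, and these differences were not tested. The effect at 6 h minus that at 1 h was -0.23 ± 0.21 for AF023087_s_at, -0.60 ± 0.25 for M18416_at, -0.24 ± 0.25 for rc_AI176662_s_at and -0.21 ± 0.27 for U75398_s_at of Egr1. For Egr3 it was positive, 0.61 ± 0.60, though about as large as its SE. From 6 to 24 h the effect fell by 1.82 ± 0.21, 2.20 ± 0.25, 2.20 ± 0.25 and 1.07 ± 0.27 on the Egr1 probe sets in the same order, and by 2.76 ± 0.44 on Egr2. From 24 to 240 h it rose again on Egr1, by 0.69 ± 0.21, 1.09 ± 0.25, 0.96 ± 0.25 and 0.63 ± 0.27. For Egr2 that step was 0.08 ± 0.44.

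**Figure D3:**
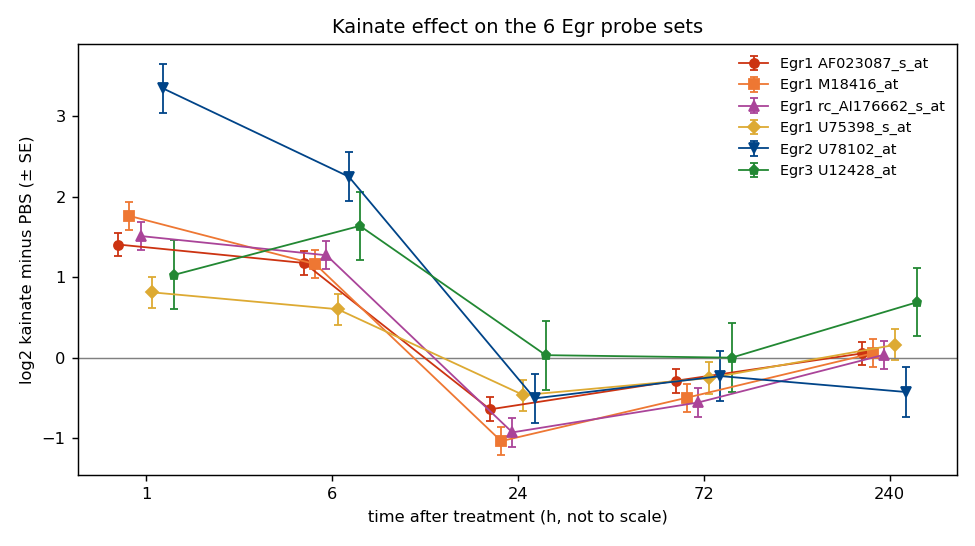
Log2 kainate minus PBS of the 6 Egr probe sets at 1, 6, 24, 72 and 240 h; points are differences of group means (3 arrays each) and bars are ± SE. Egr2 stands highest at 1 h with 3.35, the Egr1 probe sets run from 0.81 to 1.76 there and from -0.47 to -1.04 at 24 h, and the Egr3 value at 6 h is a lower bound against controls at the floor.

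Ordered by level, kainate at 1 h was the highest of the 10 groups for AF023087_s_at, M18416_at and rc_AI176662_s_at of Egr1 and for Egr2, and kainate at 6 h came next. On AF023087_s_at, M18416_at and Egr2 the arrays of these groups did not overlap each other, and on rc_AI176662_s_at they did, with 539.7 to 629 at 1 h and 383 to 599 at 6 h. On U75398_s_at of Egr1 kainate at 6 h had the higher mean, 208 against 198, with overlapping arrays. The lowest group was kainate at 24 h on each Egr1 probe set. On M18416_at, rc_AI176662_s_at and U75398_s_at its arrays did not overlap the group just above it, and on AF023087_s_at they overlapped kainate at 72 h. On U75398_s_at the group just above was PBS at 240 h, and kainate at 24 h did overlap its own controls, PBS at 24 h. The 5 PBS groups and kainate at 240 h lay between, each overlapping its neighbours in the order on M18416_at. For Egr3 kainate at 6 h was the only group with every array above the floor, and the groups wholly at the floor have no order.

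The choice of the genes rests on kainate minus PBS within each time and not on differences among the PBS groups, but the same PBS arrays enter both, so the F tests here are not wholly independent of it. Over the 15 PBS arrays Egr1 varied 1.58-fold on AF023087_s_at, 1.95-fold on M18416_at, 1.95-fold on rc_AI176662_s_at and 2.01-fold on U75398_s_at from the lowest to the highest array, and Egr2 varied 3.14-fold. The limma F test among the 5 PBS groups gave adjusted p = 0.116 for AF023087_s_at, 0.304 for M18416_at, 0.0922 for rc_AI176662_s_at and 0.261 for U75398_s_at of Egr1. It gave 0.149 for Egr2. Egr3 could not be tested, since its 15 PBS arrays were all at the floor. None of the other 5 Egr probe sets passed, against 16.9% of all probe sets tested, and 2 of the 5 (AF023087_s_at and rc_AI176662_s_at) had an unadjusted limma p under 0.05. These p-values do not show that the controls were alike.

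The arrays of 6 and 72 h were more alike than the others. The median correlation was 0.954 among them, 0.927 among the arrays of 1, 24 and 240 h and 0.925 between these sets. Kainate and PBS of any 1 time lie in the same set, so the differences above are within it. Among the PBS groups of 1, 24 and 240 h alone the limma F test gave adjusted p = 0.240 for rc_AI176662_s_at and 0.367 for AF023087_s_at of Egr1 and 0.323 for Egr2. Between the PBS groups of 72 and 6 h the Egr1 probe sets differed by -0.03 ± 0.15 (AF023087_s_at), 0.13 ± 0.18 (M18416_at), 0.33 ± 0.18 (rc_AI176662_s_at) and 0.07 ± 0.19 (U75398_s_at) on the log2 scale, and Egr2 by -0.11 ± 0.31, with adjusted p of 0.926 or more.

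The spread between arrays of a group is a measure the choice did not rank genes by, though it comes from the same arrays. After group means were removed, Egr1 (AF023087_s_at) and Egr2 correlated with r = 0.39 over the 15 kainate arrays (Spearman's rho 0.39), with a two-sided exact permutation p of 0.159 and 0.174, adjusted 0.636 and 0.694. Without the 2 arrays farthest from the median of Egr1 r was 0.34, and it was 0.54 over the 6 arrays of 6 and 72 h and 0.32 over the 9 arrays of 1, 24 and 240 h. Over the 15 PBS arrays r was 0.12 (rho -0.05), with an exact permutation p of 0.733 and 0.888, adjusted 0.778 and 0.889. It was -0.26 without the 2 farthest arrays, -0.86 over the 6 arrays of 6 and 72 h and 0.30 over the 9 others. The adjusted values are over 4 relations, of which the other two involve Egr3. Those are not given, since Egr3 was at the floor on all 15 PBS arrays and on 7 of the 15 kainate arrays. Neither relation of Egr1 and Egr2 passed.

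The probe sets of Egr1 did not share much of that spread either. Among the 4 of them, r of the deviations ran from -0.69 (AF023087_s_at and U75398_s_at, 15 PBS arrays) to 0.62 (M18416_at and rc_AI176662_s_at, 15 kainate arrays). These points share their arrays and scaling, and the values are a description. At 1 h the same PBS array, replicate 2, was the highest of its group on all 4 Egr1 probe sets (1268, 490.4, 219 and 115) and on Egr2 (71.3). This array was picked out after its values were seen.

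Over the 15 kainate arrays, each taken against the PBS mean of its time, the genes whose course was most like that of Egr1 (AF023087_s_at) were Arc (Pearson's r 0.977), Nr4a3 (0.960), Klf4 (0.942), Nr4a1 (0.939) and Fos (0.938). Egr2 stood next in that order, with 0.937. Arc encodes a synaptic protein whose mRNA is carried to dendrites, Nr4a1 and Nr4a3 orphan nuclear receptors, Klf4 a zinc finger factor and Fos a component of AP-1. For Egr2 they were Nr4a1 (0.973), Arc (0.957), Nr4a3 (0.947), Klf4 (0.938) and Egr1 (0.937). For Egr3 they were Dlx5 (0.831), Mboat7 (0.827), Mat2a (0.823), Sik2 (0.822) and Cnksr3 (0.814), while Egr1 (0.647) stood at place 85 and Egr2 (0.594) at place 137. These correlations share arrays and PBS means across genes and carry no p, and 7 of the 15 kainate arrays of Egr3 were at the floor. Dlx5 and Mboat7 rose little themselves, with log2 differences of 0.01 and 0.05 at 1 h and 0.17 and 0.26 at 6 h. At 6 h Mat2a, Sik2 and Cnksr3 had 0.58, 0.59 and 0.70. A high r for Egr3 therefore does not mean an early rise of like size.

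These genes were picked for a course like that of Egr1 or Egr2 over kainate arrays that include those of 24 h. Their values and p-values below therefore describe which of them also had a low phase and are no independent support. The log2 difference of Arc was 2.11 ± 0.15 at 1 h, 1.86 ± 0.15 at 6 h and -0.70 ± 0.15 at 24 h (limma adjusted p = 0.00355), with -0.41 ± 0.15 at 72 h. Nr4a1 had 3.06 ± 0.27, 2.37 ± 0.27 and -0.92 ± 0.27 (adjusted p = 0.0285), and Nr4a3 had 1.40 ± 0.15, 0.99 ± 0.15 and -1.10 ± 0.15 (adjusted p = 1.53e-05) on rc_AI176710_at, the 1 of its 2 probe sets that passed at 24 h. Klf4, with -0.10 ± 0.23 at 24 h, and Fos, with 0.01 ± 0.18, were near their controls then. The limma call of Nr4a1 at 24 h was lost without kainate replicate 3 and without each of the PBS arrays in turn, with adjusted p up to 0.206.

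**Figure D4:**
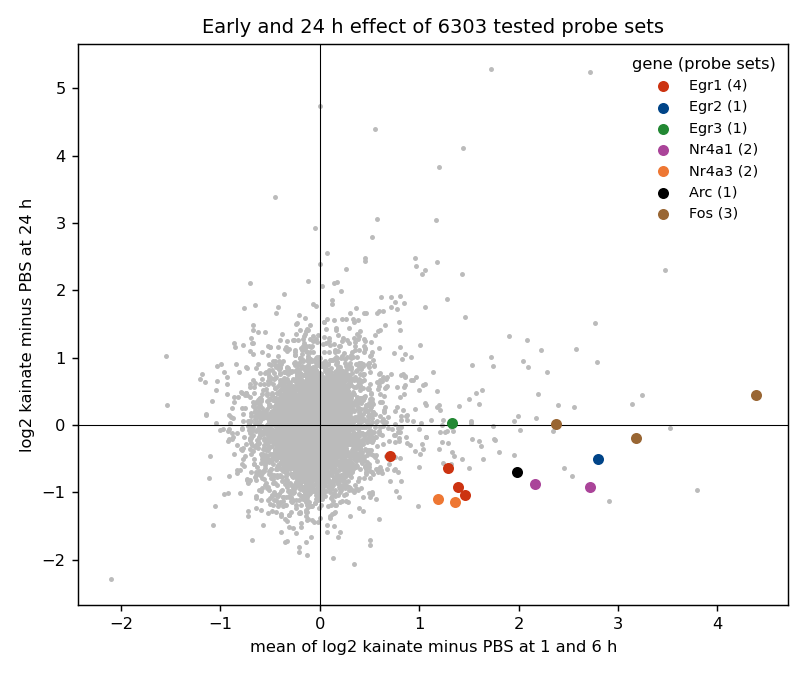
Mean log2 kainate minus PBS at 1 and 6 h (x axis) against the value at 24 h (y axis) for 6303 tested probe sets (grey), with every tested probe set of Egr1, Egr2, Egr3, Nr4a1, Nr4a3, Arc and Fos in colour. Egr1 (-0.64 on AF023087_s_at), Nr4a1, Nr4a3 and Arc (-0.70) lie right of and below 0, and Fos (0.01 on X06769cds_g_at) lies far to the right near 0.

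Of all probe sets tested, 16 (0.254%) passed as higher at 1 or 6 h and as lower at 24 h. Egr1 gave 3 of them, Nr4a1 and Dusp6 gave 2 each, and Nr4a3, Arc, Idi1, Nrn1, Ptpn1, Syne1 and Dnajb5 gave 1 each, and 2 have no gene name here. Dusp6 encodes a phosphatase that switches off ERK. Its log2 difference was 0.58 ± 0.24 at 1 h, 1.01 ± 0.24 at 6 h and -1.07 ± 0.24 at 24 h on U42627_at, so its highest early value came at 6 h, while those of Egr1 and Egr2 came at 1 h. The limma call of Dusp6 at 24 h was lost without kainate replicate 3 (adjusted p = 0.0616), and that at 6 h without kainate replicate 3, PBS replicate 2 or PBS replicate 3, with adjusted p up to 0.0795.

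Egr4, the remaining member of the family, is named in the annotation used here on rc_AI145177_f_at and rc_AI144873_at. Probe sets without a gene name, such as M92433exon#1-2_s_at, may also belong to the family, which was not settled here, so the Egr4 values hold for these probe sets only. On rc_AI145177_f_at the difference was 0.45 ± 0.20 at 1 h and 0.47 ± 0.20 at 6 h, neither passing, and Egr4 fell at 24 h, from 229 ± 20.2 to 142 ± 27.6 (SD, n = 3), by 0.70 ± 0.20 (limma adjusted p = 0.0211). On rc_AI144873_at the values were 0.55, -0.51 and -0.18 and none passed. The 24 h call was lost without kainate replicate 3, without PBS replicate 2 and without PBS replicate 3, with adjusted p up to 0.147. Nab1, a corepressor of Egr proteins, had values of 0.14 ± 0.51, -0.25 ± 0.51 and 0.20 ± 0.51 at 1, 6 and 24 h and did not pass. Nab2 and Srf were not analysed here. Of the list of family members, cofactors and corepressors, 4 of 12 genes were tested, and Egr4 at 24 h was the only call.

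The other genes of the Egr pathway were taken from lists by role, 1 probe set per gene, beside a median of all tested probe sets of -0.04 at 1 h, -0.11 at 6 h and -0.05 at 24 h. Of all tested probe sets 0.904% passed as higher and 0.19% as lower at 1 h. These shares were 3.24% and 0.698% at 6 h and 5.03% and 6.30% at 24 h. The list counts below stand beside these shares. Among 13 tested kinases, phosphatases and transcription factors upstream of Egr genes, 1 rose at 1 h, 3 rose at 6 h and 1 fell at 24 h, and the list medians were -0.07, 0.06 and 0.03. Dusp1, a phosphatase of MAP kinases, rose by 3.07 ± 0.51 at 1 h and 3.41 ± 0.51 at 6 h (limma adjusted p = 0.000465 and 3.14e-05). Crem, a relative of CREB with repressor forms, rose by 1.28 ± 0.23 at 6 h (adjusted p = 0.000509). Creb1, Mapk9, Mapk14 and Map2k1 were among the genes that did not pass at any time.

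Of 24 tested neuronal genes reported as targets of Egr1 or Egr3, 3 rose at 1 h, 7 rose at 6 h, and at 24 h 5 rose and 4 fell, with medians of -0.02, 0.09 and -0.07. Bdnf, a neurotrophin, rose most at 6 h, from 83.9 ± 3.95 to 697 ± 78.4 (SD, n = 3), a log2 difference of 3.05 ± 0.17 (limma adjusted p = 4.39e-13). Mmp9, a matrix protease, rose by 2.52 ± 0.44 at 6 h and by 2.31 ± 0.44 at 24 h (adjusted p = 0.000309 and 0.000997). Psmb9, a subunit of the immunoproteasome, rose by 1.66 ± 0.45 at 24 h (adjusted p = 0.0170), from a PBS mean of 17.6, and passed on 1 of its 2 tested probe sets. The limma call of Psmb9 was lost in 4 of the 6 fits that left out 1 array of 24 h (replicate 1 or 3 of either PBS or kainate), with adjusted p up to 0.0654, and that of Mmp9 in none of them. Arc and Nr4a1 of the same list were lower at 24 h, as given above.

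Of 20 tested growth factor, vascular and metabolic genes reported as targets of Egr1, none passed at 1 h, 8 rose at 6 h, and 5 rose and 2 fell at 24 h, with medians of 0.07, 0.56 and 0.24. Ccl2, a chemokine, had the largest change, from 29.7 ± 4.72 to 1017 ± 25.4 (SD, n = 3) at 6 h, 5.11 ± 0.43 on the log2 scale (limma adjusted p = 1.55e-09). Ptgs2, the inducible cyclooxygenase, rose by 3.03 ± 0.31 at 6 h (adjusted p = 7.00e-08), and Cd44, a hyaluronan receptor, by 1.81 ± 0.27 at 24 h (adjusted p = 5.89e-05). Of 10 tested genes on a myelin list, drawn up for targets of Egr2 in Schwann cells, none passed at 1 or 6 h. Mbp, Mag, Mog, Cnp and Mal of that list also serve here as oligodendrocyte markers, so it is no readout of Egr2 alone. At 24 h Pmp22 and Prx rose and Gjb1 fell (1.70 ± 0.46 for Prx and -1.05 ± 0.30 for Gjb1, limma adjusted p = 0.0172 and 0.0234), with a list median of -0.12. Each of these 3 calls was lost in 3 of the 6 fits that left out 1 array of 24 h, with adjusted p up to 0.0946 for Pmp22, 0.103 for Prx and 0.0973 for Gjb1. The arrays were PBS replicates 2 and 3 and kainate replicate 3 for Pmp22, PBS replicates 2 and 3 and kainate replicate 1 for Prx, and PBS replicate 2 and kainate replicates 1 and 3 for Gjb1. Gjb1 encodes a gap junction protein and Prx a scaffold protein of peripheral myelin. The PBS signal of Prx at 24 h was low and varied, 24.0 ± 19.0 (SD, n = 3).

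Of 24 other immediate early transcription factors tested, 8 rose at 1 h, 14 rose at 6 h and 4 fell at 24 h, with medians of 0.28, 1.03 and 0.00. Junb, a partner of Fos, rose from 123 ± 23.9 to 872 ± 19.1 (SD, n = 3) at 1 h, 2.84 ± 0.38 on the log2 scale (limma adjusted p = 1.96e-05), and by 2.99 ± 0.38 at 6 h. Cebpb, a leucine zipper factor of the acute phase response, rose by 2.56 ± 0.23 at 6 h (adjusted p = 3.69e-09). Like Egr1, Nr4a1 and Nr4a3 of this list were higher at 1 and 6 h and lower at 24 h, and Btg1 and Mafk, which also fell at 24 h, had not passed before. The limma call of Btg1 was lost without kainate replicate 1 or 3 (adjusted p up to 0.0808), and that of Mafk without PBS replicate 2 or kainate replicate 1 or 2 (up to 0.0788). Nr4a1 and Crem stand on 2 lists each, and the lists were not tested as sets.

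No listed gene passed at 72 or 240 h in limma, where 11 and 7 of 93 had an unadjusted limma p under 0.05. Leaving out each array of a time in turn kept 10 of the 11 calls at 1 h and 22 of the 30 at 6 h in every such fit, but 8 of the 24 at 24 h. Without kainate replicate 3 of 24 h the count of listed genes passing was 11 in place of 24.

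At 24 h some markers of cell types also passed, beside the low Egr1 signal. Over all tested probe sets 5.03% passed as higher and 6.30% as lower then, with a median log2 difference of -0.05. The marker lists were not tested as sets. The summed signal of 8 tested markers of hippocampal principal neurons was 4404 to 4670 on the PBS arrays and 2980.4 to 3429.7 on the kainate arrays, with 3 lower, 1 higher and a median log2 difference of -0.46. Such sums of linear signal weigh the strongest genes most, here Nrgn, with a mean of 2984 in PBS and 2013 in kainate. Of 9 general neuron markers 2 were lower (10064 to 11169 in PBS and 9043 to 9731 in kainate), with a median of -0.07. Of 7 astrocyte markers 2 were lower, Aldoc (-0.83 ± 0.13) and S100b (-0.58 ± 0.19). Their list summed to 7707 to 8045 in PBS and 6212 to 6987 in kainate. The others did not pass on the probe set used. Slc1a2 (0.43), Glul (0.16) and Slc1a3 (0.08) were positive, and Aqp4 (-0.45) and Gja1 (-0.60) negative. Of 6 oligodendrocyte markers none passed, with 7806 to 8051 in PBS and 6219 to 6861 in kainate. Of 6 markers of microglia and macrophages 3 were higher, with 913 to 1087 in PBS and 1528 to 1894 in kainate. Aif1 (0.56), Cx3cr1 (-0.07) and Ptprc (-0.37) of this list did not pass. Among these microglia and macrophage markers Ctss gave the largest part of the sum, with a mean of 664 in PBS and 1052 in kainate. Cd74 had a PBS mean of 3.31, under the floor. The 2 lower neuron markers were Gap43 (-0.57 ± 0.16, limma adjusted p = 0.0179) and Nefl (-0.46 ± 0.15, adjusted p = 0.0413). Snap25, Syn1 and Thy1 of the same list did not pass at 24 h. The lower principal neuron markers were Camk2a (-1.89 ± 0.32), Gria1 (-0.95 ± 0.20) and Nrgn (-0.57 ± 0.12), and the higher one was Kcnab1 (0.75 ± 0.23). Nefl and Camk2a each passed on 1 of 2 tested probe sets and Gria1 on 1 of 3. The part of these shifts in the 24 h values of Egr1 and Egr2 was not tested.

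As a sign of RNA quality, the log2 ratio of 3′ to 5′ signal of the beta-actin, Gapdh and hexokinase control probe sets overlapped between kainate and PBS at 1, 24 and 240 h. Gapdh did not overlap at 6 h, with kainate higher by 0.08, nor at 72 h, with a difference of -0.12. Its part in the Egr values at those times was not tested.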

How the data were processed

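The authors deposited a linear signal intensity for each of 8799 probe sets on each array, 59 of the probe sets being array controls; the step from image to intensity was not given in the sources used. After scaling to a common trimmed mean (2% left out at each end), signals under the 20th percentile (10.95, log2 3.45) were raised to it, and log2 was taken. Tests covered the 6303 probe sets (3702 genes) that exceeded the 40th percentile (35.2) on 3 or more arrays of the 30, all 6 Egr probe sets included. Precision is limited by the 3 arrays per group; arrays carry no read depth.

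Gene names come from the platform annotation, in which 7006 of the 8740 other probe sets carry 1 gene symbol, 308 several and 1426 none; 6994 matched a current gene identifier. A gene with several probe sets was represented in lists by that of highest mean log2. Groups follow the labels. One limma 3.58.1 model (R 4.3.3) fitted a mean to each of the 10 groups of arrays, with empirical Bayes moderation (trend on mean signal) and Benjamini-Hochberg adjustment over every tested probe set at 0.05. It gave log2 differences and SEs (20 residual and 7.27 prior degrees of freedom) and the F tests among PBS groups; it was tested on simulated data. Correlations within groups used all 7776 arrangements of arrays within groups. Python 3.11.15, pandas 2.3.3, scipy 1.17.1 and matplotlib 3.10.9 were also used. Promoters come from RefSeq.

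The members, lists, tests and naming rule were chosen with earlier results of these data known. The rule names every Egr probe set, from each list and time the 2 passing genes with the largest change, the 5 genes most like each Egr gene over the kainate arrays, and Egr4, Nab1, Nab2, Srf and Arc. Further genes were named to complete counts, after their values were seen. Alternatives were quantile scaling, a floor at the 10th percentile (4.87), no floor with an offset of 16, other sets of arrays, no filter, no trend, array weights, gene means and leaving out each array.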

Additional observations from a re-analysis of the deposited data

Results flagged for a closer look

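The sign of the kainate effect on Egr1 turned between the early times and 24 h on 3 of its 4 probe sets, with every kainate array above every PBS array early and below every PBS array at 24 h. The effect at 24 h lay below that at 1 h by 2.05 and below that at 6 h by 1.82 on AF023087_s_at. The gaps were 2.80 and 2.20 on M18416_at and 2.44 and 2.20 on rc_AI176662_s_at, all on the log2 scale. These differences between times were not tested, because the genes were chosen on them. U75398_s_at of Egr1, Egr2 and Egr3 had groups that overlapped at 24 h.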

How the results depend on the processing

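Of 443 recomputed values, 400 kept their call, stayed within 1 SD of the first value or, for counts, changed little, 43 moved, and no called value changed sign. The 24 h difference of Egr1 was -0.77 as the mean of its 4 probe sets. Egr2 at 6 h was 1.75 without a floor. Egr3 depended on the floor throughout, as its controls lie below it: with a floor at the 10th percentile it was 1.83, 2.31, 0.67 and 0.42 at 1, 6, 24 and 72 h, and without a floor 1.13, 0.21 and 0.13 at 6, 24 and 72 h.

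Counts of probe sets passing, 69, 248, 714, 3 and 3 at 1, 6, 24, 72 and 240 h, changed with the arrays in the fit. With only the arrays of the same set they were 43, 481, 343, 5 and 0, and with only the 6 arrays of the time 31 at 1 h, 256 at 24 h and 0 at 72 and 240 h. The pathway genes passing were then 7 in place of 11 at 1 h with the 6 arrays, and 11 (set) and 8 (6 arrays) in place of 24 at 24 h. Array weights gave 633 at 6 h and 153 at 72 h, with 7 pathway genes at 72 h. Without the filter 10 passed at 72 h and 13 at 240 h, without the trend 0 at 72 h, and with the lower floor 1 at 240 h. Leaving out 1 array gave 163 to 279 at 6 h (fewest without kainate replicate 3), 336 to 716 at 24 h (fewest without kainate replicate 3, and 431 without PBS replicate 3) with 11 to 23 pathway genes, 0 to 1 at 72 h, and 0 to 19 at 240 h (most without kainate replicate 1, fewest without kainate replicate 2). The split moved too: at 1 h it was 57 higher and 12 lower, but 52 and 44 without kainate replicate 3 and 31 and 0 with the 6 arrays; at 6 h 204 and 44, but 300 and 181 with the set and 361 and 272 with weights; at 24 h 317 and 397, but 143 and 113 with the 6 arrays. Fewer arrays or other weights change the spread estimate by construction; other causes were not tested.

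The labels do not say that replicate numbers pair arrays, and the data did not meet the rule that every pair correlates over 0.1: deviations of same-numbered kainate and PBS arrays correlated between -0.07 and 0.17 over 15 pairs, 3 of them over 0.1, and 15 of 30 arrays correlated best with their own number, among 3 candidates each, a hint from the data and not the design. With a replicate block the counts were 57, 239, 693, 0 and 3, and the Egr differences were unchanged by construction. The signal of Egr3 is too near background for a fall to be measured. Egr2 had no array at the floor, but its low signal after the early times limits how far a fall could be seen.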

Other observations

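Of the other genes that passed as higher early and as lower at 24 h, Idi1, Nrn1, Syne1, Ptpn1 and Dnajb5 had their larger early value at 6 h. Idi1, an enzyme of isoprenoid synthesis, had log2 differences of 0.48 ± 0.21 at 1 h, 1.16 ± 0.21 at 6 h and -0.83 ± 0.21 at 24 h. Nrn1, which encodes neuritin, had 0.52 ± 0.17, 0.66 ± 0.17 and -0.66 ± 0.17. Syne1 and Ptpn1 were near 0 at 1 h (-0.06 ± 0.17 and -0.01 ± 0.21), higher at 6 h (1.01 ± 0.17 and 0.83 ± 0.21) and lower at 24 h (-0.58 ± 0.17 and -0.66 ± 0.21). Dnajb5, a chaperone gene of the Hsp40 family, had 0.16 ± 0.14, 0.61 ± 0.14 and -0.50 ± 0.14.

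The unnamed probe set M92433exon#1-2_s_at had 2.56 ± 0.16, 2.52 ± 0.16 and -0.76 ± 0.16, and rc_AA875032_at had 1.25 ± 0.20, 1.76 ± 0.20 and -0.64 ± 0.20 at 1, 6 and 24 h. The annotation used here gives neither of them a gene, and whether M92433exon#1-2_s_at measures a member of the Egr family was not settled here. All of these passed the limma test at 6 h and at 24 h, which is how they were selected, so the passing itself is no result.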
